A study of Mus musculus with 34 samples.

Results

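Histone deacetylases (HDACs) remove acetyl groups from lysines of histones and other proteins, and 4 of the 27 compounds profiled here inhibit them, so the transcripts of the targeted family were examined in the same cells. The genes were chosen by name: Hdac1, Hdac2, Hdac3, Hdac4, Hdac5, Hdac6, Hdac7, Hdac8, Hdac9 and Hdac11, 10 genes of the classical family among 52661 genes with an expression value, and 397 of their splicing events among 401633 events. In reads over exon junctions, Hdac11, Hdac1, Hdac6 and Hdac5 rose with each of the 4 inhibitors, although Hdac5 with BRD4884 was slightly below vehicle in the merged expression values. Hdac9 fell with CI-994, Vorinostat and BRD4884, Hdac7 fell with Vorinostat, and Hdac2 passed the test with none of the 4. The largest differences from DMSO were those of Hdac11 and Hdac5, at 3.72-fold and 3.5-fold with Vorinostat, and that of Hdac9, at 0.404-fold with the same compound.

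PolyA RNA was measured in 34 libraries of mouse Neuro-2A (N2A) cells, a neuroblastoma line, after 24 h of treatment in a final 0.4% DMSO that every group received. DMSO alone had 3 libraries (A, B and C). CI-994, an ortho-aminoanilide directed at HDAC1, HDAC2 and HDAC3, Vorinostat (SAHA), a hydroxamate with broad class I and class II activity, and BRD4884 and BRD6688, both given in the study's main text as kinetically selective for HDAC2, had 2 libraries each (A and B), and 23 other compounds had 1 each. A supplementary figure title of the study instead gives HDAC1, HDAC2 and HDAC3 as the targets of BRD4884 and BRD6688. BRD4884 and BRD6688 were assayed at 1 shared concentration, and CI-994 and Vorinostat at others, so only the former pair is compared directly. The study's methods describe the duplicates as biological replicates, and p-values measure the spread between these libraries. All groups are 1 cell line, without untreated cells.

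Each library held 17702718 to 40613524 reads over exon junctions of introns. Over 8892 genes the SD of the log2 difference between libraries of a group was 0.139 to 0.166 for DMSO, CI-994, BRD4884 and BRD6688, and 0.339 between Vorinostat A and Vorinostat B, whose libraries stood apart from each other. As the estimate of the spread is shared, p-values with Vorinostat do not carry its full spread, and those with the other inhibitors carry part of it. Of 13 neuronal and neuroblastoma markers, 10 were above 1 RPKM with DMSO, while Nefl and Nefm were at or near 0. The reference gene Cdkn1a, a cell cycle inhibitor known to be induced by HDAC inhibition, rose 5.51-fold with CI-994, 6.22-fold with Vorinostat, 3.8-fold with BRD4884 and 2.66-fold with BRD6688 in junction reads. H1f0, the other gene chosen as a reference for HDAC inhibition, is a linker histone gene without introns and so without a test. It was at 227.71 RPKM with DMSO and at 63.44, 130.91, 209.65 and 244.92 RPKM with those compounds. As deposited, H1f0 was thus below DMSO with CI-994, Vorinostat and BRD4884, and only Cdkn1a rose with each inhibitor.

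The classical HDACs depend on zinc and fall into 4 classes. Class I enzymes (HDAC1, HDAC2, HDAC3 and HDAC8) are mostly nuclear, and all but HDAC8 act as the catalytic subunits of corepressor complexes such as SIN3, NuRD, CoREST and NCoR/SMRT. Class IIa enzymes (HDAC4, HDAC5, HDAC7 and HDAC9) have weak catalytic activity, bind MEF2 transcription factors through their amino-terminal part, and leave the nucleus with 14-3-3 proteins when calcium-dependent and related kinases phosphorylate them. HDAC6 is a class IIb enzyme of the cytoplasm that deacetylates tubulin, and HDAC11 is the lone class IV enzyme, which removes long-chain fatty acyl groups. In neurons class I and class IIa enzymes are known as repressors of differentiation and activity-dependent genes.

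On GRCm38, Hdac11 is at chr6:91156665-91174692 on the plus strand, and Hdac5 (chr11:102194432-102230166) and Hdac9 (chr12:34047580-34917095) are on the minus strand. Sequences are shown for the starts of Hdac11 and Hdac5, the genes that rose most, and for 3 of the exons whose splicing is described below. The RefSeq promoter table (GRCm38.p6) has windows of 300 bases, 250 before and 50 after a start, for 8 of the 10 genes, not for Hdac1 and Hdac3. In capitals are the GC box (GGGCGG or its complement) and, at the Hdac5 start, a MEF2 consensus element of 10 letters that allows more than 1 base at 6 of them. Both were searched on both strands.
Hdac11 promoter, chr6:91156565-91156864, plus strand: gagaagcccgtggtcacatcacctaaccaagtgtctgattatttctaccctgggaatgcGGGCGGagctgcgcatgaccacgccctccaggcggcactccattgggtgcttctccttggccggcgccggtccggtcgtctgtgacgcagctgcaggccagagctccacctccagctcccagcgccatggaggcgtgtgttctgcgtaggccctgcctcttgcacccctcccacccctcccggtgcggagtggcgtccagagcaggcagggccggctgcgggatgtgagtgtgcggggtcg
Hdac5 promoter, chr11:102230123-102230422, minus strand: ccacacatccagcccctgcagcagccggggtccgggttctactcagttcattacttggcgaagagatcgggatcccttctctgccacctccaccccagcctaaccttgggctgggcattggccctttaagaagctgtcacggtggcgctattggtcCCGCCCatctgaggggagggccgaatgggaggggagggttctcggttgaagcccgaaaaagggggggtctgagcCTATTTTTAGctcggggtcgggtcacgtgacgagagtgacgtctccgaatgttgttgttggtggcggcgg
The MEF2 consensus occurs in 1047 of 32851 promoter windows (3.19%). Among the HDAC genes searched it occurs in that of Hdac5, starting 20 bases before the start site. GC boxes occur in 35.7% of all windows, and the windows of Hdac4 and Hdac6 hold 5 each, those of Hdac2, Hdac5 and Hdac11 and 1 of the 4 of Hdac7 hold 1, and those of Hdac8 and Hdac9 hold 0. These matches are letters in a window and describe no binding.

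Next are 3 coding exons of Hdac7 and Hdac9 (GRCm38, minus strand, 5′ to 3′ of the transcript). Their splicing was called different from DMSO with 2 or 3 of the inhibitors. For at least 1 of these, the call rests on the mean of both libraries. The last 6 bases of the 127-nt Hdac9 exon, in capitals, belong to the longer form only.
Hdac7 111-nt exon, chr15:97808660-97808770: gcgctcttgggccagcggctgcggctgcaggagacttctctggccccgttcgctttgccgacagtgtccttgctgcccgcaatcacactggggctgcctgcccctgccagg
Hdac9 132-nt exon, chr12:34407766-34407897: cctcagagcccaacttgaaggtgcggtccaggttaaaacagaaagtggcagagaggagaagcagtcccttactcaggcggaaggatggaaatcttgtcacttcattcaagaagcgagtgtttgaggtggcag
Hdac9 127-nt exon with its 2 donor ends, chr12:34431863-34431989: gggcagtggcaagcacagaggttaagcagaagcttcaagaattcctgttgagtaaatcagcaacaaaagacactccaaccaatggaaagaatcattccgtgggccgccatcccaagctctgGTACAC
The Hdac7 exon is exon 8 of the transcript Hdac7-201, has 37 codons and is in 3 of 11 annotated coding transcripts. The 132-nt Hdac9 exon is exon 7 of Hdac9-201, has 44 codons and is in 6 of 9 coding transcripts, and the 127-nt exon is exon 5 of the same transcript.

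Per length, Hdac2, Hdac1 and Hdac3 of class I were the most abundant of the 10 genes in vehicle-treated N2A cells. Hdac2 stood at 223.18 RPKM, Hdac1 at 64.06 and Hdac3 at 40.74, followed by Hdac6 at 19.85 and Hdac5 at 13.93. Hdac11 (6.75 RPKM), Hdac9 (5.89), Hdac4 (5.27), Hdac7 (3.87) and Hdac8 (2.4) were the lowest. RPKM, which scales reads by transcript length and library size, is deposited as 1 value per condition, merged by the authors over replicates, so neighbours in this order cannot be separated from their spread. Tests therefore rest on the junction reads of each gene in each library, given per 1000000 after scaling between libraries and called normalised junction reads. The limma test with Benjamini-Hochberg adjustment covered 11451 genes, all 10 HDAC genes among them, and called a difference at an adjusted p below 0.05. Junction reads are compared between libraries only, not between genes. In these bulk samples fewer cells of a type and less RNA per cell cannot be told apart.

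The test called most genes of the cell, so the number of HDAC genes called is read against that background. With CI-994, 5 of 10 were called higher and 2 lower, against 42.7% and 35.0% of all genes. With Vorinostat, 5 were higher and 3 lower (background 42.1% and 34.7%), with BRD4884, 4 and 1 (35.0% and 27.3%), and with BRD6688, 5 and 1 (33.5% and 29.5%). The 10 genes as a set were thus called about as often as genes at large, and they differed in direction and size. When a difference over 2-fold was also asked for, a rule chosen after the data were examined, 2 were higher and 0 lower with CI-994 (background 23.2% and 12.5%), 2 and 2 with Vorinostat (21.9% and 12.7%), 1 and 1 with BRD4884 (15.8% and 1.36%) and 0 and 0 with BRD6688 (12.1% and 3.45%). The 4 comparisons share the 3 DMSO libraries. Scaled to the library total, 4915 genes were higher and 2180 lower with BRD4884, in place of 4009 and 3129, and the 5 HDAC calls of that comparison kept their direction. The plot of levels by library shows all 10 genes.

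**Figure D1:**
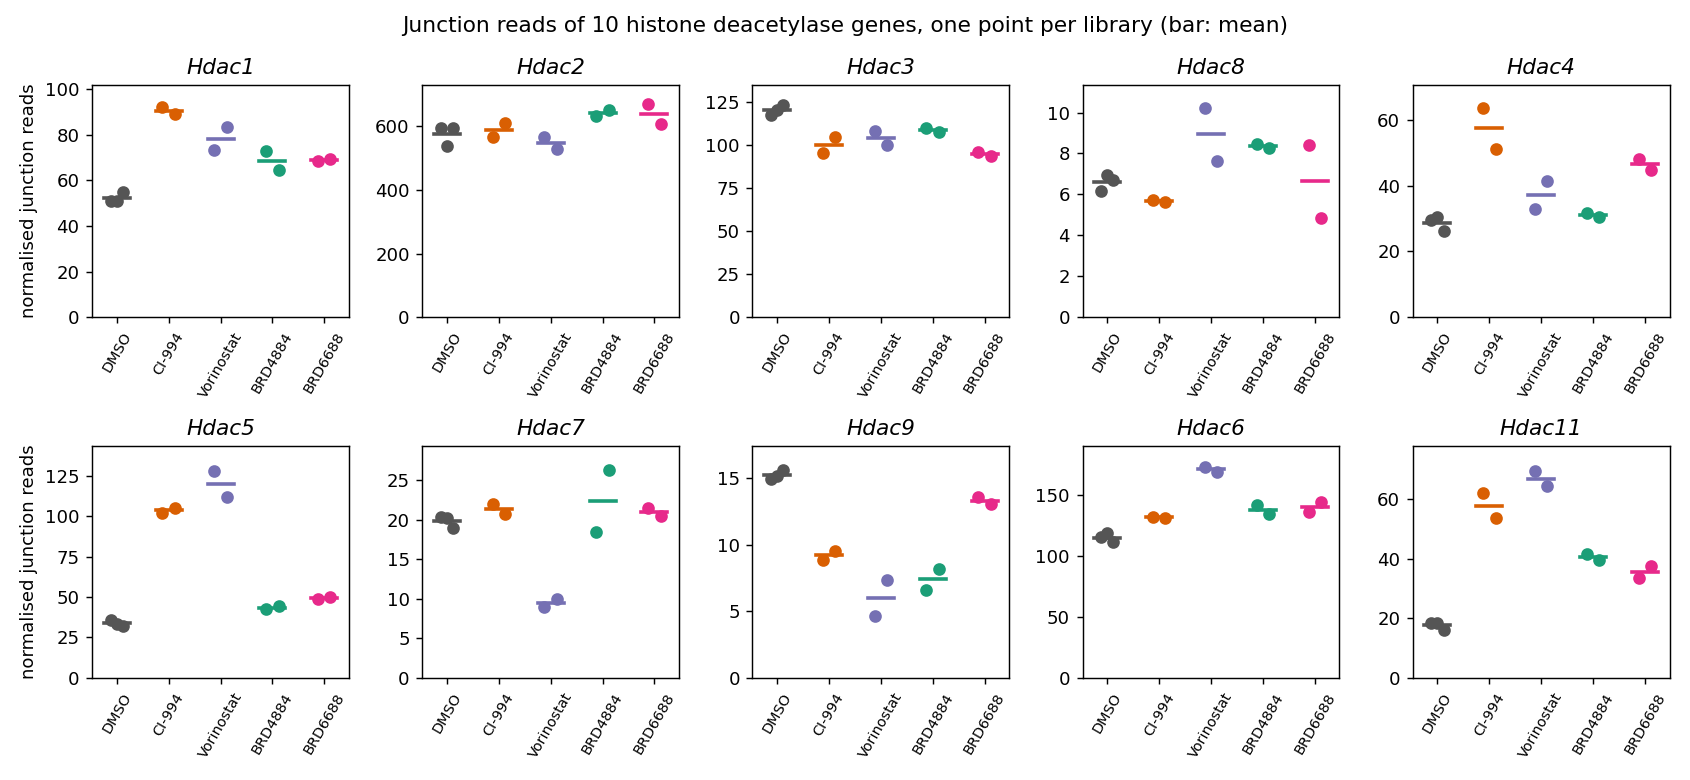
Normalised junction reads (y axis, linear from 0) of the 10 genes in the 3 DMSO libraries and the 2 libraries of each HDAC inhibitor, 1 point per library with the mean as a bar. Hdac11, Hdac1, Hdac6 and Hdac5 lie above all DMSO libraries in all 8 inhibitor libraries, and Hdac9 and Hdac3 lie below them in all 8. The share of all genes that do either was not counted.

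Among the class I genes, Hdac1 rose with all inhibitors, Hdac3 fell with 3 and Hdac2 and Hdac8 passed the test with none. Hdac1 junction reads were 50.85, 50.78 and 54.93 normalised reads in DMSO A, B and C. They were 92.26 and 89.04 with CI-994, 73.23 and 83.47 with Vorinostat, 72.7 and 64.39 with BRD4884, and 68.52 and 69.56 with BRD6688. Every inhibitor library was above every DMSO library. The log2 differences were 0.79 (SE 0.0867, adjusted p 7.68e-07) with CI-994, 0.58 (2.17e-05) with Vorinostat, 0.39 (0.00127) with BRD4884 and 0.40 (0.000979) with BRD6688. Among all genes, 27.5% had a larger difference with CI-994, 32.6% with Vorinostat, 32.5% with BRD4884 and 30.2% with BRD6688. The value of Hdac1 rests on 1 intron, the only one the splicing table has for it. Its merged RPKM, which rests on the whole transcript, was also above the DMSO value of 64.06 with all 4, at 74.97 to 81.14.

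Hdac2, the most abundant member and the target that the study's main text gives for BRD4884 and BRD6688, had 595.0, 538.9 and 593.5 normalised junction reads with DMSO. It had 564.8 and 610.2 with CI-994, 566.6 and 529.8 with Vorinostat, 630.8 and 650.7 with BRD4884, and 669.0 and 608.2 with BRD6688. The CI-994 and Vorinostat libraries overlapped those of DMSO, and those of BRD4884 and BRD6688 lay above them without passing the test. The log2 differences and 95% confidence intervals were 0.03 (-0.13 to 0.19) with CI-994, -0.07 (-0.23 to 0.09) with Vorinostat, 0.16 (-0.0003 to 0.31) with BRD4884 and 0.15 (-0.0065 to 0.30) with BRD6688. All 4 intervals thus lay between -0.23 and 0.31. These are sums over 13 introns, which did not move evenly. With BRD6688 intron 1, counted from the 5′ end, was at a log2 difference of 1.62 and intron 12 at -0.53, and with CI-994 they were at 1.07 and -0.57. With Vorinostat the introns ranged from -0.35 to 0.14, and with BRD4884 from -0.01 to 0.61. Scaled to the library total instead, Hdac2 was called higher with BRD4884 (0.30, adjusted p 0.00214) and BRD6688 (0.26, adjusted p 0.00581). Leaving out Vorinostat A or B, which share in the estimate of the spread, also called it, at adjusted p 0.018 and 0.0181 with BRD4884 and 0.0227 and 0.0228 with BRD6688.

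Hdac3, the enzyme of the NCoR/SMRT complexes, had 117.2, 120.5 and 123.3 normalised junction reads with DMSO. It had 95.36 and 104.5 with CI-994, 108.0 and 99.62 with Vorinostat, 109.7 and 107.5 with BRD4884, and 95.72 and 93.67 with BRD6688. All 8 inhibitor libraries were below all 3 DMSO libraries. The differences were small: it fell by 0.27 on the log2 scale with CI-994 (adjusted p 0.00382), by 0.21 with Vorinostat (0.0158) and by 0.34 with BRD6688 (0.000888), while with BRD4884 the difference was -0.15 (0.0933). The call with CI-994 was lost without CI-994 A (adjusted p 0.068), and that with Vorinostat without Vorinostat B (0.0622), with the median over introns in place of their sum (0.22) and with the replicate letter as a block (0.0704). Without Vorinostat A or B, BRD4884 passed as well (0.0296 and 0.0292). Hdac3 was also below the DMSO range in 20 of the 23 single-library compounds, so a value below DMSO was common to most treatments.

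Hdac8, a class I enzyme that acts outside those complexes and deacetylates cohesin, had the fewest junction reads. Its libraries held 6.189, 6.938 and 6.687 with DMSO, 5.718 and 5.641 with CI-994, 10.24 and 7.648 with Vorinostat, 8.484 and 8.247 with BRD4884, and 8.423 and 4.852 with BRD6688. The libraries of Vorinostat and BRD4884 were above DMSO and those of CI-994 below, and none of these differences passed the test. The intervals of the log2 difference were wide, from -0.62 to 0.22 with CI-994 and from -0.02 to 0.82 with Vorinostat. With Vorinostat it passed under 4 of 16 alternatives, namely the median over introns (0.50, adjusted p 0.0162) and without BRD6688 A (0.0333), BRD6688 B (0.0319) or Vorinostat B (0.60, 0.0205).

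The class IIa genes moved apart from each other: Hdac5 and Hdac4 rose, Hdac9 fell, and Hdac7 fell with Vorinostat. Hdac5, an activity-regulated corepressor of MEF2 factors, had 36.04, 33.41 and 32.31 normalised junction reads with DMSO. It had 102.3 and 104.9 with CI-994, 128.2 and 112.1 with Vorinostat, 42.31 and 44.55 with BRD4884, and 48.76 and 49.85 with BRD6688. No inhibitor library overlapped DMSO, and the libraries of CI-994 and Vorinostat were far above those of the other pair, which were given at another concentration. The log2 differences were 1.60 (SE 0.0863, adjusted p 3.1e-10) with CI-994, 1.81 (8.33e-11) with Vorinostat, 0.35 (0.0025) with BRD4884 and 0.53 (8.51e-05) with BRD6688. Among all genes, 14.7% had a larger difference with CI-994, 10.3% with Vorinostat, 34% with BRD4884 and 24.5% with BRD6688. With the median over introns in place of the sum, the difference was 0.72 with CI-994 and 1.20 with Vorinostat, both called, and 0.19 (adjusted p 0.36) with BRD4884 and 0.26 (0.21) with BRD6688, which were not.

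Introns of Hdac5 did not move evenly. Introns 2 to 10, counted from the 5′ end, had log2 differences of 1.68 to 2.21 with CI-994, and introns 12 and 15 had 0.41 and 0.44. With BRD6688 introns 1 to 9 were all above DMSO (0.61 to 1.68), while intron 12 was at -0.48 and intron 13 at -0.37. With Vorinostat all 25 introns were over 2-fold higher (1.15 to 2.20). Introns 5 to 10 held 208 to 492 reads each over the 3 DMSO libraries and introns 12 to 25 held 26 to 181, so the 5′ introns weigh more in the sum.

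Hdac4, a class IIa enzyme prominent in neurons and muscle, had 29.5, 30.45 and 26.19 normalised junction reads with DMSO. It had 63.48 and 51.22 with CI-994, 32.92 and 41.36 with Vorinostat, 31.54 and 30.4 with BRD4884, and 48.21 and 44.72 with BRD6688. The BRD4884 libraries overlapped those of DMSO and the other 6 lay above. Hdac4 rose by 0.98 on the log2 scale with CI-994 (adjusted p 2.63e-06), by 0.69 with BRD6688 (0.000173) and by 0.36 with Vorinostat (0.0136), and the difference with BRD4884 was 0.11 (0.441, interval -0.15 to 0.37). With the median over introns the first 2 were 0.65 and 0.46 and still called. The call with Vorinostat was lost without Vorinostat B (0.20, adjusted p 0.141), without DMSO C (0.0567), with the median over introns (0.125) and with the replicate block (0.075). All 23 introns with at least 50 reads were higher with CI-994, 11 of them over 2-fold.

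Hdac9, a class IIa member with several promoters and a short form that lacks the deacetylase domain, had 14.99, 15.16 and 15.62 normalised junction reads with DMSO. It had 8.89 and 9.538 with CI-994, 4.656 and 7.375 with Vorinostat, 6.603 and 8.213 with BRD4884, and 13.57 and 13.08 with BRD6688. All 8 inhibitor libraries were below all 3 DMSO libraries, those of BRD6688 only slightly. Hdac9 fell by 0.70 on the log2 scale with CI-994 (SE 0.168, adjusted p 0.0015), by 1.31 with Vorinostat (4.6e-06) and by 1.0 with BRD4884 (0.000118), and the difference with BRD6688 was -0.19 (0.342, interval -0.55 to 0.17). The share of all genes with a lower value was 20% with CI-994, 8% with Vorinostat, 1.34% with BRD4884 and 34.9% with BRD6688. With the median over introns the fall with Vorinostat was 0.82. The behaviour was shared by the introns measured, as all 10 were lower with CI-994, Vorinostat and BRD4884 (3, 7 and 5 of them over 2-fold), against 5 of 10 with BRD6688. The splicing data list 22 cassette exons of Hdac9 but only these 10 introns, so they may not cover the whole gene.

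Hdac7, known for its part in the endothelium and in thymocytes, had 20.41, 20.19 and 18.94 normalised junction reads with DMSO. It had 9.037 and 10.03 with Vorinostat, 22.05 and 20.78 with CI-994, 18.48 and 26.36 with BRD4884, and 21.5 and 20.52 with BRD6688. Both Vorinostat libraries were far below all others of these 5 groups. Hdac7 fell by 1.02 on the log2 scale with Vorinostat (adjusted p 7.5e-06), with all 21 introns of at least 50 reads lower, and by 0.55 with the median over introns. The differences with CI-994 (0.11, interval -0.19 to 0.40), BRD4884 (0.15, -0.14 to 0.45) and BRD6688 (0.08, -0.21 to 0.38) did not pass. These sums join introns that did not move evenly. With BRD6688 intron 1 was at 1.10 and intron 23 at -1.36, from 44 and 69 DMSO reads. Introns ranged from -1.07 to 0.73 with CI-994 and from -0.46 to 0.76 with BRD4884. The BRD4884 libraries lay on either side of DMSO, and without BRD4884 A the difference was 0.40 (adjusted p 0.0325).

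Hdac6, the cytoplasmic tubulin deacetylase, rose with all inhibitors by small amounts. Its libraries held 115.2, 118.7 and 111.4 normalised junction reads with DMSO, 131.8 and 131.3 with CI-994, 173.2 and 169.0 with Vorinostat, 141.4 and 134.5 with BRD4884, and 136.1 and 143.9 with BRD6688. The highest values were those of Vorinostat, and no inhibitor library overlapped DMSO. The log2 differences were 0.57 (SE 0.0678, adjusted p 1.98e-06) with Vorinostat, 0.19 (0.018) with CI-994, 0.26 (0.00389) with BRD4884 and 0.28 (0.00222) with BRD6688. Among all genes, 33% had a larger difference with Vorinostat, 46.2% with CI-994, 38.3% with BRD4884 and 36.3% with BRD6688, so such rises were common. With Vorinostat 27 of 28 introns were higher. The call with CI-994 was lost without DMSO C (adjusted p 0.0604), CI-994 A (0.0785) or CI-994 B (0.0703) and with the replicate block (0.0869), and that with BRD4884 without BRD4884 A (0.0516). Scaled to the library total, the difference with BRD4884 was 0.41.

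Hdac11, the class IV gene, rose with all 4 inhibitors. Its libraries held 18.62, 18.34 and 16.08 normalised junction reads with DMSO, from 749, 645 and 315 reads. They held 62.03 and 53.82 with CI-994, 69.62 and 64.39 with Vorinostat, 41.68 and 39.79 with BRD4884, and 33.63 and 37.52 with BRD6688. The lowest inhibitor library was far above the highest DMSO library. Hdac11 rose 3.21-fold with CI-994 (log2 difference 1.68, SE 0.1036, adjusted p 1.3e-09), 3.72-fold with Vorinostat (1.89, 3.38e-10), 2.27-fold with BRD4884 (1.18, 1.88e-07) and 1.99-fold with BRD6688 (0.99, 1.48e-06). Between 9.48% and 13.9% of all genes had a larger difference, so rises of this size were not rare with these compounds. All 9 introns were higher with each inhibitor, with log2 differences of 1.5 to 1.89 with CI-994, 1.61 to 2.01 with Vorinostat, 0.94 to 1.34 with BRD4884 and 0.65 to 1.25 with BRD6688. The rise was called under all 16 alternative fits with each compound.

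**Figure D2:**
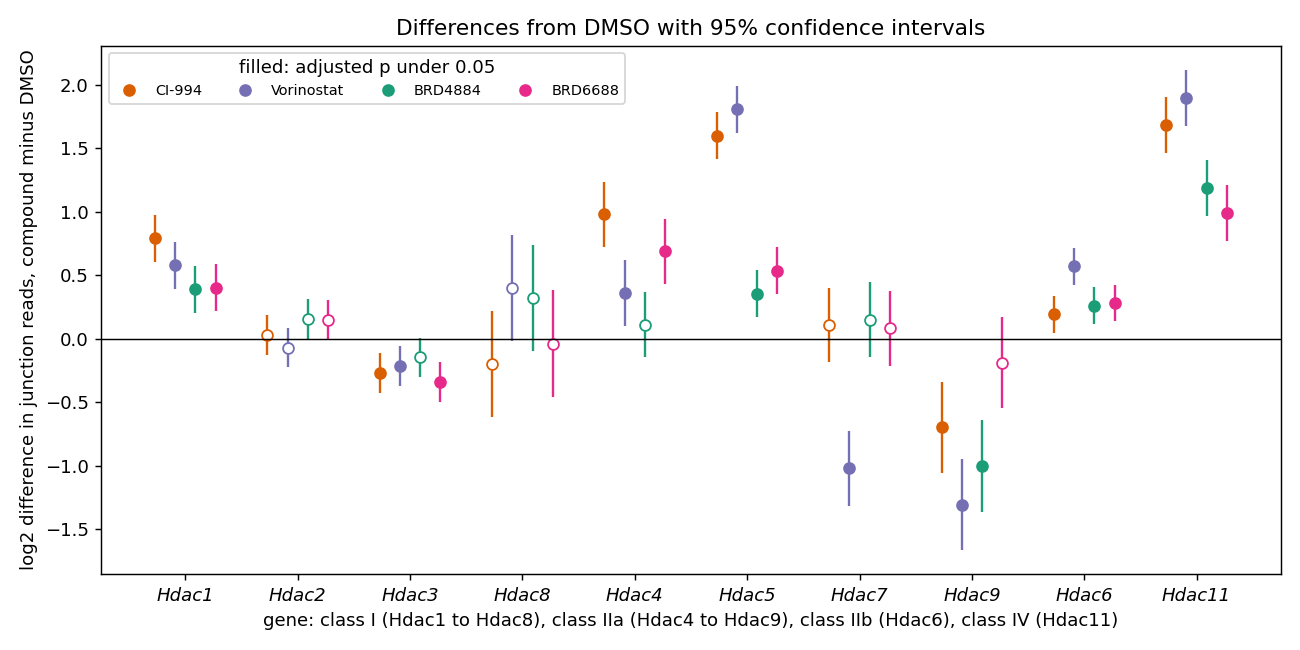
Log2 difference in junction reads between each HDAC inhibitor and DMSO (y axis) for the 10 genes ordered by class (x axis), with 95% confidence intervals from the limma fit and filled symbols where the adjusted p is under 0.05. Hdac11 and Hdac5 lie highest with CI-994 and Vorinostat, Hdac9 and, with Vorinostat, Hdac7 lie lowest, and the intervals of Hdac2 all include 0.

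**Figure D3:**
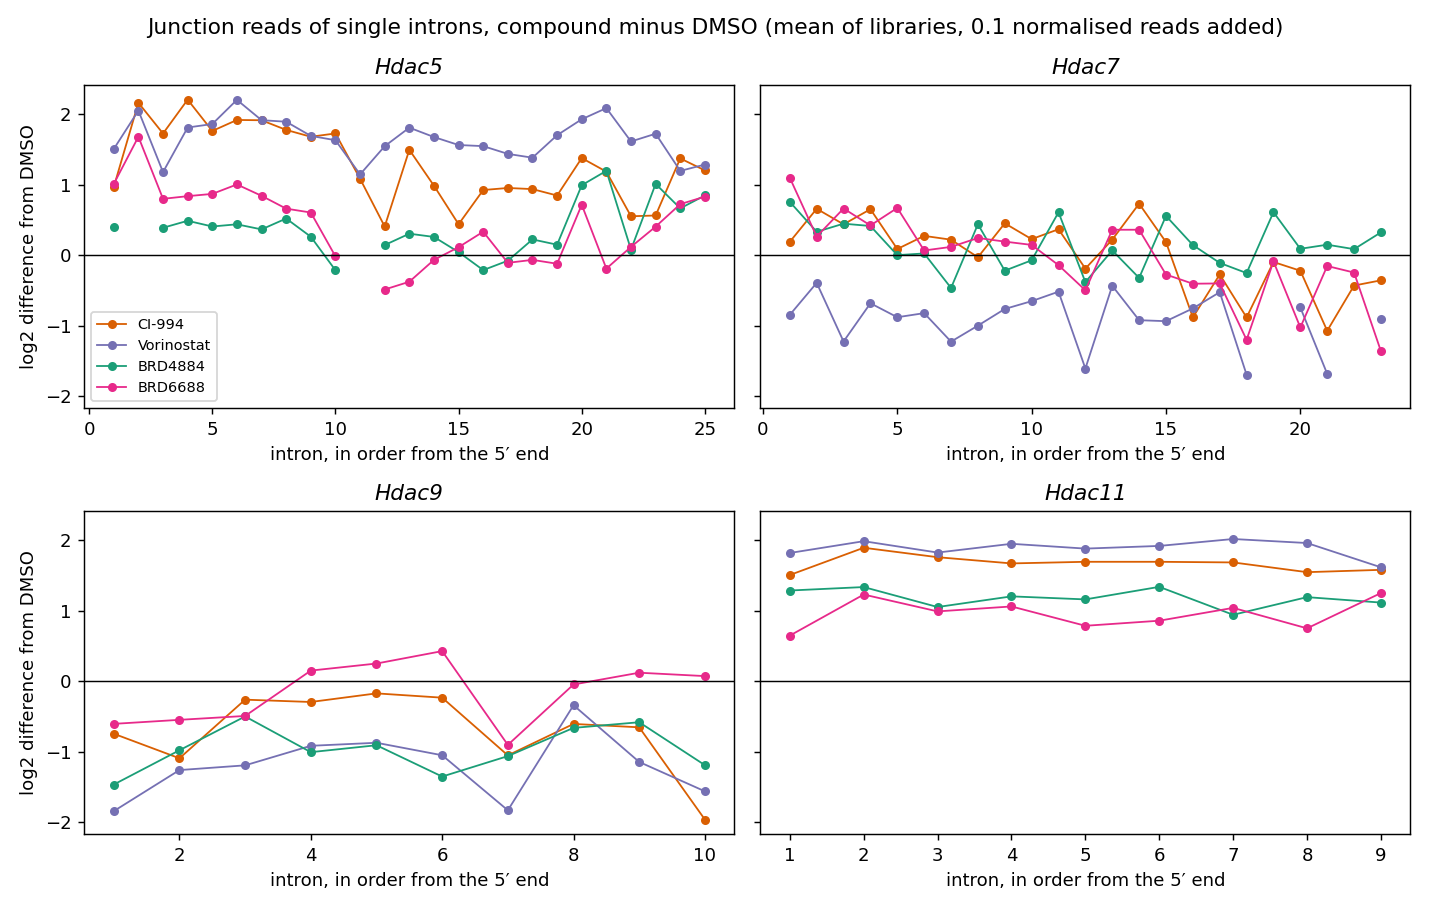
Log2 difference in junction reads of single introns (y axis) by their order from the 5′ end (x axis) for Hdac5, Hdac7, Hdac9 and Hdac11, each line 1 HDAC inhibitor and each point the mean of its libraries against DMSO, for introns with at least 50 reads. The 9 introns of Hdac11 move together, whereas introns 12 to 19 of Hdac5 lie lower than its introns 2 to 9 with CI-994 and BRD6688.

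BRD4884 and BRD6688, the pair given at the same concentration, differed in 2 of the 10 genes. Hdac9 was 0.57-fold as high with BRD4884 as with BRD6688 (log2 difference -0.81, interval -1.21 to -0.42, adjusted p 0.00693), and only 0.524% of genes had a lower value in this comparison. Hdac4 was 0.67-fold as high (-0.58, -0.86 to -0.30, adjusted p 0.00724). Of all genes 12.3% were called lower with BRD4884 and 19.1% higher, and 0 HDAC genes were called higher. With over 2-fold also required, 0 HDAC genes were called in either direction (2.63% of all genes higher and 0.105% lower). Adjusted p-values are over all 11451 genes, and this was the only pair of compounds compared. The call for Hdac9 was lost without BRD4884 A (-0.67, adjusted p 0.0678) or BRD6688 A (-0.79, 0.0566), and that for Hdac4 without BRD4884 B (0.0521) or BRD6688 A (0.0687) and with the median over introns (-0.31, 0.189).

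For the other 8 genes the pair was not distinguished. The intervals of the log2 difference were narrow for Hdac2 (-0.16 to 0.18), Hdac6 (-0.18 to 0.14) and Hdac1 (-0.22 to 0.19). They reached further for Hdac11 (-0.05 to 0.44), Hdac5 (-0.38 to 0.02) and Hdac7 (-0.25 to 0.39), and furthest for Hdac8 (-0.10 to 0.82). Hdac3 lay between, at 0.20 (0.02 to 0.37, adjusted p 0.0753), and was called higher with BRD4884 when scaled to the library total (0.0414) and without Vorinostat A (0.0169) or B (0.0167). For CI-994 and Vorinostat, given at concentrations of their own, the values above stand side by side without a test between compounds.

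The merged RPKM values gave the same directions for Hdac11 and Hdac9 and other ones for some members. RPKM was lower for genes at large, with a median log2 ratio to DMSO of -0.44 with CI-994, -0.362 with Vorinostat, -0.267 with BRD4884 and -0.186 with BRD6688 over genes above 5 RPKM, so ratios are also given relative to that median. In junction reads the medians of all genes were 0.1, 0.09, 0.051 and 0.059, and 0.117, 0.124, 0.193 and 0.159 when scaled to the library total. Hdac11 was at 6.75 RPKM with DMSO and at 19.89 with CI-994, 22.48 with Vorinostat, 14.45 with BRD4884 and 15.57 with BRD6688. Hdac9 was at 5.89 RPKM with DMSO and at 2.61, 2.01, 2.68 and 4.76 with the same compounds. Hdac5 was at 13.93 RPKM with DMSO and at 28.45, 30.48, 12.75 and 17.40. With BRD4884 the direction of Hdac5 therefore depended on the scale: the log2 RPKM ratio was -0.12 as deposited and 0.14 relative to the median, against 0.35 in junction reads.

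Other members also moved upwards, and most of those given next changed sign. Hdac4 with BRD4884 was at -0.13 as deposited and 0.14 relative to the median. Hdac2 was at -0.40 with CI-994, -0.41 with Vorinostat and -0.04 with BRD4884 as deposited, and at 0.04, -0.05 and 0.23 relative to the median, so with Vorinostat it stayed below DMSO on both scales. Hdac8 with CI-994 was at -0.15 and 0.29, and Hdac7 with CI-994 at -0.06 and 0.38. Hdac3 was below DMSO with all 4 on both scales, and Hdac1, Hdac6 and Hdac11 were above on both. By a limit of 2-fold and 5 RPKM, which leaves 8 of the 10 genes, Hdac5 and Hdac11 were higher and Hdac9 lower with CI-994 and with Vorinostat. Of all such genes 10.2% were higher and 26.1% lower with CI-994, and 10.4% and 22.5% with Vorinostat. Hdac11 was higher and Hdac9 lower with BRD4884 (5.29% and 4.42%), and Hdac11 was higher with BRD6688 (5.14%, and 6.75% lower). Relative to the median, Hdac9 no longer reached 2-fold with any of them and Hdac4 joined the higher genes with CI-994. The shares of all genes on that scale were 16.4% higher and 12.7% lower with CI-994, 15.7% and 12.9% with Vorinostat, 7.86% and 1.16% with BRD4884, and 7.12% and 3.53% with BRD6688.

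Across all 28 conditions, Hdac9, Hdac11 and Hdac5 varied most and Hdac1, Hdac2 and Hdac3 least. Hdac9 ranged from 1.73 RPKM with OICR.24K.Dissimilar_18_P14, a compound named by its label, to 26.79 with the MEK inhibitor Trametinib, a 15.5-fold range that only 8.16% of genes exceeded on the log2 scale. Hdac11 ranged from 2.46 RPKM with T5758020 to 22.48 with Vorinostat (14.1% of genes wider), and Hdac5 from 7.06 with the AKT inhibitor A-443654 to 35.59 with the TRK inhibitor GNF-5837 (25.3%). At the other end, the ranges of Hdac3 (25.69 to 40.74 RPKM), Hdac1 (49.34 to 81.14) and Hdac2 (156.94 to 290.61) were narrower than those of 98.6%, 97.7% and 91.9% of genes. Each single-library compound is 1 library set beside the range of 3 DMSO libraries, with no replicate check. Over all genes, 37.5% of such pairs lay above that range and 37.2% below it, and 26.3% of genes were above it with at least 12 of the 23 compounds and 26.9% below it.

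The 4 highest values of Hdac9 were those with inhibitors of MEK, TRK, ERK and PDGFR kinases. Its merged RPKM was 26.79 with Trametinib, 22.46 with GNF-5837, 17.52 with the ERK inhibitor SCH-772984 and 13.34 with the PDGFR inhibitor Crenolanib, against 5.89 with DMSO. In junction reads those libraries held 75.19, 68.93, 45.97 and 40.82, the next highest single library, with AW00693, held 25.99, and DMSO held 14.99 to 15.62. The lowest were 4.739 with OICR.24K.Dissimilar_18_P14 and 6.587 with A-443654, from 136 and 196 reads, followed by 10.77 with the WEE1 inhibitor MK-1775 and 10.78 with the IGF1R inhibitor NVP-AEW-541. Of the 23 compounds, 13 lay above the DMSO range of Hdac9 and 9 below it. Hdac9 was at opposite ends of its range with these 4 kinase inhibitors and with CI-994, Vorinostat and BRD4884.

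Hdac11 did not separate the 2 sets of compounds. GNF-5837 (58.79 normalised junction reads), Crenolanib (44.64), Trametinib (27.95) and BTBS00065 (26.57) were above the DMSO range of 16.08 to 18.62, as were the HDAC inhibitors. The lowest were T5985871 (5.901), T5758020 (6.153), T5635931 (7.189), AW00693 (8.345) and T5963258 (8.546), from 125 to 235 reads each. Of the 23, 7 were above the DMSO range and 9 below. In RPKM, GNF-5837 (21.01) and Crenolanib (16.85) stood between Vorinostat and BRD6688.

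Hdac5 was above the DMSO range with 18 of the 23 compounds and below it with 2. The highest were GNF-5837 at 92.82 normalised junction reads, BTBS00065 at 71.2 and Trametinib at 67.4, and the lowest were A-443654 at 18.21 and SEW06315 at 27.99. Hdac4 was above with 15 compounds, up to 45.21 with SEW06315, and below with 5, down to 21.15 with Crenolanib. Hdac7 was above with 18, up to 30.41 with BTB12021, and its lowest value, 16.76 with SCH-772984, was well above both Vorinostat libraries. Hdac6 was below with 17 and reached 157.8 with BTBS00065, under both Vorinostat libraries. Hdac1 was above with 4 compounds and at most 69.25 with T5985871, and Hdac2 was above with 10 and at most 825.3 with the same compound. Hdac8 ranged from 4.471 with BTBS00065 to 9.06 with SEW06315.

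**Figure D4:**
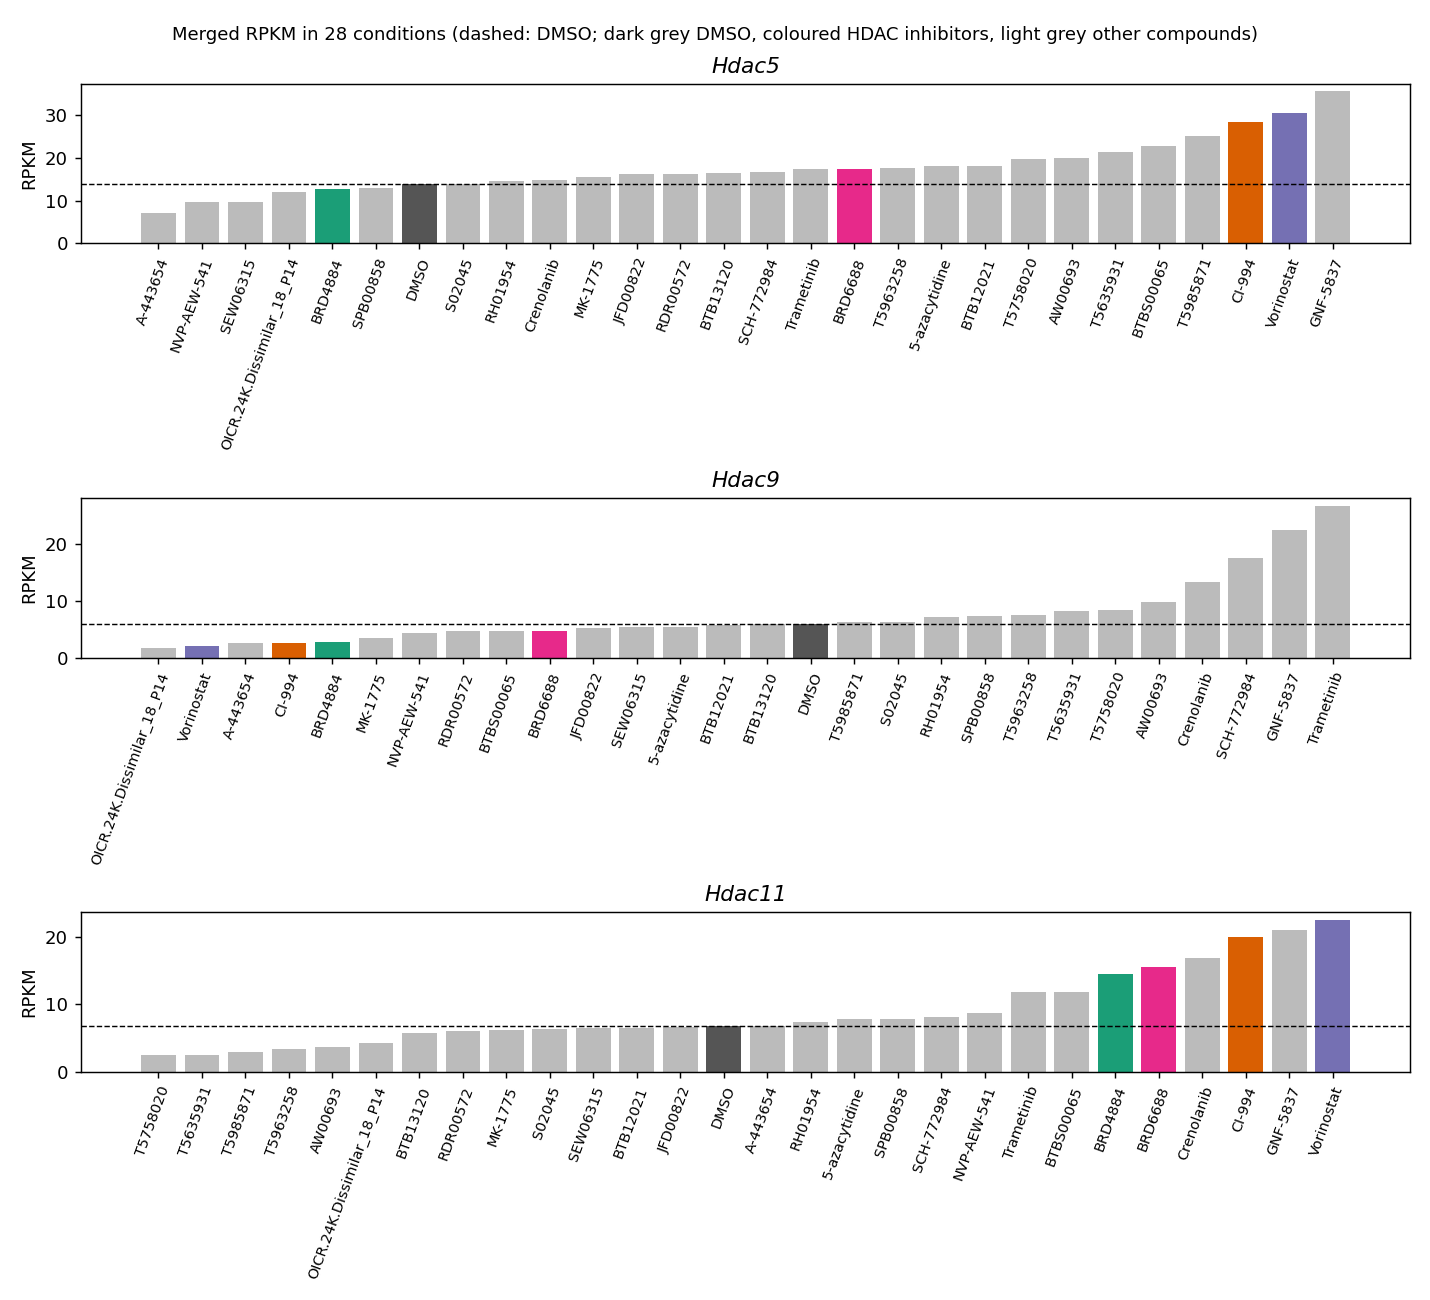
Merged RPKM (y axis, linear from 0) of Hdac5, Hdac9 and Hdac11 in 28 conditions ordered by value (x axis), with DMSO in dark grey and as a dashed line, HDAC inhibitors in colour and other compounds in light grey. All 4 HDAC inhibitors lie below DMSO for Hdac9 and above it for Hdac11, and the highest bars of Hdac9 are those of Trametinib, GNF-5837, SCH-772984 and Crenolanib.

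The genes whose RPKM pattern over the 28 conditions was most like that of Hdac11 were Maged2 (Pearson's r 0.935 on the log2 scale), Tyk2 (0.928) and Adck4 (0.907), among 11457 genes compared. Maged2 was at 33.68 RPKM with DMSO and at 89.57, 82.73, 76.51 and 67.73 with CI-994, Vorinostat, BRD4884 and BRD6688. Among the HDAC genes compared Hdac6 was the most like Hdac11 (0.721), while Hdac5 (0.22) and Hdac9 (-0.021) were not. These are descriptions over merged values of 1 cell line.

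Splicing of the HDAC genes changed in few events. The table holds 171 cassette exons of over 27 nt, 0 microexons, 69 alternative splice sites and 157 introns of the 10 genes. An event was called with a difference of at least 10 percentage points in the mean percent spliced in (PSI) and a posterior probability above 0.95. Calls were made for 2 of 297 tested events with CI-994 (0.673%, against 1.53% of all events), 6 of 280 with Vorinostat (2.14% against 1.34%), 5 of 304 with BRD4884 (1.64% against 0.913%) and 3 of 305 with BRD6688 (0.984% against 1.04%). These are 10 distinct events, 6 in Hdac7, 3 in Hdac9 and 1 in Hdac4, and 2 of the 3 in Hdac9 are the sides of 1 choice of splice site. All 6 calls with Vorinostat and 2 of the 3 with BRD6688 rest on 1 library that passed the coverage and balance filter. Those have no replicate check. The calls with CI-994 and BRD4884 rest on 2 libraries, but the posterior carries the counting error of each library and not the spread between libraries. Libraries that are far apart can therefore still give a call. None of the events of Hdac1, Hdac2, Hdac3, Hdac5, Hdac6, Hdac8 or Hdac11 was called with an HDAC inhibitor, with 1, 33, 35, 43, 62, 9 and 13 events tested.

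The 111-nt exon of Hdac7, whose sequence is given above, was included more with 3 inhibitors. Its PSI was 10.7, 12 and 11.1 with DMSO, 21.3 and 54.6 with CI-994, 17.3 and 49.3 with BRD4884, 25.3 and 29.1 with BRD6688, and 23.1 and 10.3 with Vorinostat. The libraries of CI-994, BRD4884 and BRD6688 were all above DMSO, but those of CI-994 and of BRD4884 were far apart within their group. The differences of 26.7, 22 and 15.9 points were called, and that of 5.4 with Vorinostat was not. The exon is inside a 433-bp stretch whose retention as an unspliced intron was called higher with BRD6688, by 13.2 points, from BRD6688 A at 13.9% alone, and BRD6688 B, which did not pass the filter, was at 1.2%.

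Hdac9 transcripts skipped a 132-nt exon more and used the shorter end of exon 5 more with BRD4884. PSI of the 132-nt exon was 61.2, 62.3 and 53.7 with DMSO, 46.5 and 38.1 with BRD4884, 68.5 and 38.3 with CI-994, and 54.6 and 48.0 with BRD6688. With Vorinostat only library B passed the filter, at 45.5 from 96 reads, and library A, at 58.6 from 23 reads, was level with DMSO. The exon fell by 16.8 points with BRD4884. The call with Vorinostat, a difference of -13.6, compares 1 library with DMSO, and the differences of -5.6 with CI-994 and -7.8 with BRD6688 were not called. The longer donor end, 6 bases downstream, was used in 88.8, 82.0 and 93.4% with DMSO, and in 54.5 and 76.4% with BRD4884, a fall of 22.6 points. It was used in 67.9% in Vorinostat B, the lone library behind a called difference of -20.1, and in 72.2% from 11 reads in Vorinostat A, which did not pass. BRD6688 A and B were at 90.3 and 66.0%, so 1 of them was as low as Vorinostat B, and CI-994 B was at 87.9%, and neither compound was called. Hdac9 reads also fell with BRD4884 and Vorinostat, so fewer reads stand behind the PSI.

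The other calls were each with 1 or 2 compounds. A 119-nt exon of Hdac7 was at 83.2 and 87.9% with DMSO A and B and at 100% in Vorinostat A and in both BRD4884 libraries, a difference of 14.5 points. Vorinostat B, which did not pass, was at 100% as well, and DMSO C, which did not pass either, at 91.7%. A 72-nt coding exon of Hdac4, exon 2 of Hdac4-201, was at 70.9% in Vorinostat B against a DMSO mean of 93.0%, and Vorinostat A, which did not pass the filter, was at 80.7%. An 85-nt exon of Hdac7 was called 14.6 points lower with BRD6688, from BRD6688 B at 85.4% alone, while BRD6688 A, which did not pass, was at 100% from 29 reads, the level of DMSO. Retention of a 187-bp Hdac7 intron was called higher with CI-994, by 11.5 points at a posterior of 0.9505, with CI-994 A at 47.8% and CI-994 B at 0%. That of a 1213-bp intron was called with Vorinostat, by 14.9 points, from Vorinostat B at 17.2% alone, with Vorinostat A, which did not pass, at 0%.

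**Figure D5:**
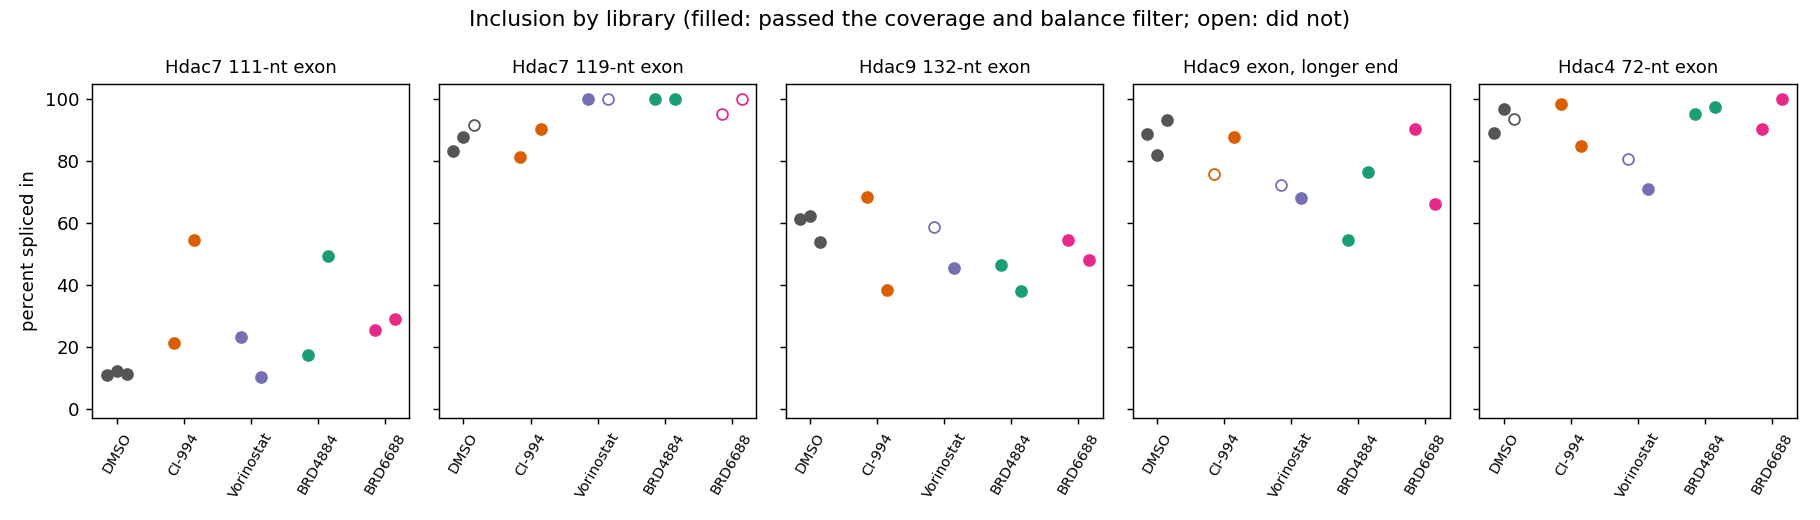
Percent spliced in (y axis, 0 to 100) of 5 exons or splice sites of Hdac7, Hdac9 and Hdac4 in each DMSO and HDAC inhibitor library, filled where the library passed the coverage and balance filter. The Hdac7 111-nt exon lies at 10.7 to 12 with DMSO and reaches 54.6 with CI-994, and the lowest library of the Hdac9 132-nt exon, at 38.1, is one of BRD4884.

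Over all 27 compounds the largest differences came from compounds other than HDAC inhibitors. An acceptor of Hdac4, whose choice adds or removes 15 bases, was used in its longer form in 51.3 and 48.4% of transcripts with DMSO A and B, and in 84.8% with BTB12021, 82.9% with RDR00572 and 14.6% with AW00693, from 35 to 48 reads in those 3. The longer donor of Hdac9 was at 57.0% with JFD00822, from 26 reads. An 85-nt coding exon of Hdac6, at 91.1, 93.8 and 90.1% with DMSO from 212 to 462 reads, was at 63.5% with MK-1775 from 169 reads. A pair of Hdac7 introns were retained to 48.2 and 48.6% with RDR00572, against 22.5 and 13.5%, and 15.4 and 27.3%, with DMSO A and B. Between 0% and 3.82% of the events tested were called with the 23 other compounds, against backgrounds of 0.845% to 2.53%, and 0 were called with RH01954, GNF-5837, Trametinib and SCH-772984. Hdac9 was high with the latter 3, and 0 of its events were called there.

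Genes that work with the family were read from fixed lists, whose members were chosen with earlier results of these data known. The median log2 difference of all genes tested was 0.1, 0.09, 0.051 and 0.059 with CI-994, Vorinostat, BRD4884 and BRD6688. The share of all genes called lower was 35.0%, 34.7%, 27.3% and 29.5% with the 4 compounds in that order, and the share called higher was 42.7%, 42.1%, 35.0% and 33.5%. Of the corepressor complex genes, which hold class I HDACs, 33 were tested, and 17, 18, 20 and 13 fell while 5, 9, 1 and 9 rose, with medians of -0.373, -0.354, -0.398 and -0.135. Mbd3, a NuRD subunit, fell with each (log2 differences of -1.82, -2.17, -1.12 and -1.32). Its partners Chd3, the NuRD remodeller (-1.76, -2.05, -0.91 and -0.64), and Mta1, a NuRD scaffold (-0.97, -1.31, -0.69 and -0.40), fell as well. Rcor2, a CoREST scaffold, fell by 2.36 with Vorinostat and by 0.50 with BRD6688.

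Lysine acetyltransferases, the opposing enzymes, had 10 genes tested, of which 6, 7, 10 and 6 fell and 0 rose with any of the 4, with medians of -0.404, -0.389, -0.622 and -0.406. Of all genes 35.0%, 34.7%, 27.3% and 29.5% fell and 42.7%, 42.1%, 35.0% and 33.5% rose. Kat2a (GCN5) fell with each, at log2 differences of -1.56, -2.06, -1.05 and -1.07, and Hat1, which acetylates new histone H4, at -1.83, -1.16, -0.62 and -0.87. The 7 sirtuins, NAD-dependent deacetylases outside the classical family, were mixed, with 3, 3, 3 and 1 higher and 3, 2, 1 and 2 lower, and medians of -0.191, -0.135, 0.075 and -0.177. Sirt2, like HDAC6 a tubulin deacetylase, rose with each, by 0.99, 1.46, 0.93 and 0.72. Of the 6 bromodomain readers of acetylated lysine, 4, 3, 5 and 3 fell and 2, 1, 0 and 1 rose, with medians of -0.354, -0.403, -0.452 and -0.145.

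Of the class IIa partners, the MEF2 factors, 14-3-3 genes and export kinases, 18 of 21 were tested. With the 4 compounds in the same order 12, 11, 6 and 11 rose and 3, 4, 3 and 3 fell, with medians of 0.475, 0.281, 0.1 and 0.436. Against the 42.7%, 42.1%, 35.0% and 33.5% of all genes that rose, 6 of 18 with BRD4884 is a share near the background. Camk2b, a neuronal calcium kinase, rose with each by 2.51, 1.64, 1.07 and 1.31 on the log2 scale, and Prkd2, a protein kinase D that phosphorylates class IIa HDACs, by 1.56, 1.65, 1.01 and 1.29. Mef2c, a MEF2 factor, rose with CI-994 (1.91), Vorinostat (1.94) and BRD4884 (1.38), and its difference with BRD6688 was 0.40 (adjusted p 0.16). Ywhaz, a 14-3-3 gene, fell with each, by 0.78, 1.0, 1.39 and 0.81.

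Markers of other cell types moved with some of the same groups. The summed RPKM of 4 fibroblast markers was 0.55 with DMSO, with 0 of the 4 above 1 RPKM, and 23.32 with CI-994, 12.08 with Vorinostat, 12.97 with BRD4884 and 7.03 with BRD6688, mostly from Col1a1, at up to 11.67, and Pdgfra, at up to 9.99. Dcn, a defining fibroblast gene, was at most 1.93. The summed level of the neuronal list was 1295.13 with DMSO and 964.87 to 1300.51 with the inhibitors. Sums of 4 glial, 3 immune and 3 epithelial markers stayed at or below 4.6, 1.2 and 1.72 RPKM. The part of these shifts in the values of the HDAC genes was not tested.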

How the data were processed

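PolyA RNA of N2A cells was measured in 34 libraries, grouped by the treatment in the labels. Deposited RPKM is 1 value per gene and condition, which the authors derived with Salmon and GENCODE vM21 transcripts by summing over transcripts and merging libraries. Salmon 0.10.2 and edgeR are named in the submitters' processing notes. The authors' fold changes, p-values and calls were not used. The deposited percent spliced in (PSI) of each event and library was made by the authors with vast-tools on mm9, with a quality string of read numbers, and 0 columns were left without a sample.

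The exon junction reads in the strings of intron events were summed per gene, scaled by median-of-ratios factors over 34 libraries and tested as log2(reads per 1000000 + 0.5) with limma 3.58.1 in R 4.3.3. The test had a mean trend, was two-sided, used 11 libraries (6 residual degrees of freedom) and genes with a mean of at least 0.5 on that scale, with Benjamini-Hochberg adjustment over 11451 genes. Genes with few annotated introns, such as Hdac1 with 1, rest on few junctions, and H1f0 has none. Reads over junctions are not molecules, so small numbers carry counting error beyond the spread shown. RPKM ratios are log2 of values with 0.5 added, which understates low genes, and carry no test. Splicing calls used 2000 beta draws per event and library and libraries passing the coverage and balance filters (for introns at least 15 reads), in at least 0.5 of each group. Scripts were tested on simulated data with known changes. Same-lettered libraries did not deviate together (correlations of -0.193 to 0.07), so the letter was not used as a pairing.

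All 10 genes are described, with every splicing event called with an HDAC inhibitor and the 5 with the largest difference over 27 compounds (the sides of 1 site counted once). In each list the 4 genes with the largest mean change over the inhibitors were eligible to be named. Some of them are not reported here. The likeness measure was Pearson's r of log2 RPKM over 28 conditions. The genes and lists were chosen with earlier results of these data known. Of the list genes, 5 were matched under older symbols through RefSeq. Alternatives were another scaling, pseudocounts, filters, a replicate block, the median over introns, other splicing limits and leaving out each library.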

Additional observations from a re-analysis of the deposited data

How the results depend on the processing

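Of the 28 called differences of HDAC genes, 19 were called under all 16 alternative fits, 9 were lost under at least 1 and 0 changed direction, and 6 of the 22 uncalled differences were called under some. The replicate letter as a block ended 3 calls, those of Hdac6 with CI-994 (0.17, adjusted p 0.0869), Hdac3 with Vorinostat (-0.20, 0.0704) and Hdac4 with Vorinostat (0.30, 0.075). Between BRD4884 and BRD6688, 1 gene was higher when scaled to the library total and 1 rather than 2 lower with the median over introns. With over 2-fold required as well, a rule chosen after seeing the data, 2 genes were higher and 0 lower with CI-994 (23.2% and 12.5% of all genes). With Vorinostat 2 were higher and 2 lower (21.9% and 12.7%), with BRD4884 1 and 1 (15.8% and 1.36%), and with BRD6688 0 and 0 (12.1% and 3.45%). By the same rule 0 were lower with BRD4884 than with BRD6688 (0.105%). In RPKM, a pseudocount of 1 left 1 gene over 2-fold higher and 0 lower with CI-994 and 0 higher and 0 lower with BRD4884, and centring left 0 lower with CI-994, Vorinostat and BRD4884. A limit of 15 PSI left 1 called event with CI-994, 3 with Vorinostat and 1 with BRD6688, and libraries that do not overlap in place of the posterior left 1 with CI-994. The cause was not tested.

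In the main fit 42.7%, 42.1%, 35.0% and 33.5% of all genes were higher with CI-994, Vorinostat, BRD4884 and BRD6688, and 35.0%, 34.7%, 27.3% and 29.5% were lower. Leaving out each library in turn gave 4 to 5 HDAC genes higher and 1 to 2 lower with CI-994, and 4 to 6 and 2 to 3 with Vorinostat. It gave 4 to 5 and 1 to 2 with BRD4884, 5 to 6 and 1 to 1 with BRD6688, and 0 to 1 higher and 0 to 2 lower between BRD4884 and BRD6688. Called splicing events then ranged from 1 to 5 with CI-994 (5 without CI-994 A, 1 without DMSO B), 2 to 6 with Vorinostat (2 without Vorinostat B), 4 to 7 with BRD4884 and 3 to 8 with BRD6688 (8 without DMSO B), so these counts depend on single libraries. Over all genes, the counts between BRD4884 and BRD6688 were 2184 higher and 1411 lower, 1238 and 489 with the median over introns, 829 and 415 without BRD4884 A, 917 and 410 without BRD4884 B, 635 and 213 without BRD6688 A, 1227 and 599 without BRD6688 B, 2956 and 2245 without Vorinostat A, and 2964 and 2233 without Vorinostat B. Low reads limit Hdac8, and no replicate exists for 23 compounds.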
